A study of Homo sapiens with 4 samples.

Results

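The zinc finger (ZNF) messages encoded on chromosome 19 were followed here through the RNA of HEK293T culture supernatant. Members were the protein-coding genes of chromosome 19 whose symbol is ZNF, a number and at most 1 further letter, which gave 247 of the 61543 genes in the count table. The assay, POND-seq, fuses an RNA-binding protein to the nanocage protein EPN24, so that bound RNA leaves the cell inside secreted nanocages and can be read from the medium. The groups were EPN24-Cas13d, in which the nanocage protein carries the RNA-guided, RNA-cutting CRISPR enzyme Cas13d (2 libraries), and EPN24, the nanocage protein without Cas13d (2 libraries). HEK293T is a line derived from human embryonic kidney cells that carries the SV40 large T antigen, and all libraries came from it. Both groups share EPN24, the cell line, the medium, a filtration step and synthetic ERCC spike-in RNA added to a fixed volume of medium. The sources used here give neither the guide RNA nor the time of collection, and do not say whether replicates were separate cultures, so the p-values cover no more than the spread between these libraries. RNA inside nanocages and other RNA of the medium cannot be told apart in these libraries, nor can a change in the number of releasing cells and a change in RNA released per cell.

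Classical zinc finger proteins read DNA with tandem fingers, each a short loop in which pairs of cysteines and histidines hold a zinc ion. Most of those encoded on chromosome 19 also carry a KRAB box at the amino end, which recruits the scaffold protein TRIM28 and through it the enzymes of heterochromatin, and many are known to silence transposable elements. The genes arose by tandem duplication and lie in clusters along both arms. Near-identical neighbours are therefore common, and the sources used here do not say how reads that match several of them were counted.

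The finger-coding stretches of these messages differ in base composition, which is compared with the fold changes below. To show that contrast, 1 finger of each of 4 GC-rich members called higher and 4 AT-rich members called lower is printed, chosen after their values and GC content were seen. Each is the first finger of classical spacing that is followed by a classical linker, read from the transcript of longest complete coding sequence in GENCODE release 29 (GRCh38). The capitals mark the last histidine codon and the linker to the next finger, a stretch shared by classical zinc fingers. ZNF628 (chr19:55481305-55481382, plus strand), ZNF358 (chr19:7520035-7520112, plus), ZNF787 (chr19:56088893-56088970, minus) and ZNF71 (chr19:56621681-56621758, plus) were called higher in EPN24-Cas13d, and ZNF431 (chr19:21183003-21183080, plus), ZNF675 (chr19:23654084-23654161, minus), ZNF791 (chr19:12627929-12628006, plus) and ZNF616 (chr19:52116276-52116353, minus) were called lower.
ZNF628: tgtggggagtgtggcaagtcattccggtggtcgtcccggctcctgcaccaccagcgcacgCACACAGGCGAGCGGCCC
ZNF358: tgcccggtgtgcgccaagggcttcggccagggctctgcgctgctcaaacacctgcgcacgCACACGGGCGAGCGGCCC
ZNF787: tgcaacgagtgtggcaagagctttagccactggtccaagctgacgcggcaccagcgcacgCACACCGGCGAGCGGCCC
ZNF71: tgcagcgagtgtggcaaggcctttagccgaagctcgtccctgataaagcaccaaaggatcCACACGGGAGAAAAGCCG
ZNF431: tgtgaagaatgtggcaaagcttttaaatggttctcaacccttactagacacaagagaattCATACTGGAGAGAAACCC
ZNF675: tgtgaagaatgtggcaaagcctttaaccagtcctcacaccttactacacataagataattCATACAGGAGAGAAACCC
ZNF791: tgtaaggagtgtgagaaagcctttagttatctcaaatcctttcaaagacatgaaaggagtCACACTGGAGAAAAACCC
ZNF616: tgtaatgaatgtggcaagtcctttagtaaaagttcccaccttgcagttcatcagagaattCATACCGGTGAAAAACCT

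The GC content of the shown stretches was 69.2% in ZNF628, 73.1% in ZNF358, 66.7% in ZNF787 and 56.4% in ZNF71. It was 39.7% in ZNF431, 41.0% in ZNF675, 39.7% in ZNF791 and 39.7% in ZNF616. At the third codon positions the contrast was wider, with 92.3% G or C in the ZNF787 finger and 26.9% in the ZNF616 finger. Over all such fingers, the 143 of 29 members called higher had a median GC content of 55.1% (65.4% at the third positions). The 831 of 106 members called lower had 42.3% (34.6% at the third positions). The 417 of the 60 members not tested had the same medians as the lower ones, and the 248 of 38 members not called had 46.2% (42.3%). Of the 109 lower calls, 107 were in members that passed the low-count filter, described below, through EPN24 alone. Among the members shown, ZNF71 passed it through EPN24-Cas13d alone, and ZNF431, ZNF675, ZNF791 and ZNF616 through EPN24 alone. The ranges over single fingers overlapped, at 37.2% to 76.9% in higher and 32.1% to 57.7% in lower members, and the first finger of ZNF792, a higher member not shown, had 48.7%.

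Depth was 5097332 and 4863449 gene counts for the EPN24-Cas13d libraries, against 1830860 and 1903492 for the EPN24 libraries. ERCC counts ran the other way, with 89588 and 82049 in EPN24-Cas13d, against 445118 and 502789 in EPN24. Members took 17746 and 17335 counts of the EPN24-Cas13d libraries, against 3919 and 3697 of the EPN24 libraries, so a typical member rests on few counts. Most whole values are even, as if the 2 reads of a pair had been counted separately. All intervals below cover counting error only. They treat counts as independent and are too narrow if the reads of a pair were counted separately. Of 8 markers of HEK293T cells, all were tested, with a summed level of 2024 and 2015 CPM (counts scaled to a common library size with TMM factors) in EPN24-Cas13d, against 327 and 350 CPM in EPN24. VIM made up most of it, and the other 7 summed to 221 and 195 CPM in EPN24-Cas13d, against 202 and 193 CPM in EPN24. Of the 8, 3 were higher, 2 lower (NEFM, -1.42, and EYA1, -3.03) and 3 not called. A list of 10 markers of blood, liver, heart, skin and connective tissue, expected near 0, summed to 3.61 and 7.05 CPM in EPN24-Cas13d, against 48.6 and 53.5 CPM in EPN24, with HBA1 at 0 in every library.

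Chromosome 19 ZNF messages made up 0.348% and 0.356% of gene counts in EPN24-Cas13d, against 0.214% and 0.194% in EPN24. The groups did not overlap, and the mean was 0.352% ± 0.0059 in EPN24-Cas13d and 0.204% ± 0.014 in EPN24 (SD, n = 2 each), a ratio of 1.73. With 2 libraries a group, the exact two-sided permutation test cannot go below its value here, p = 0.333. The direction depended on the denominator: once the RN7SL family and the 10 genes of highest mean share were left out of it, members made up 0.371% in EPN24-Cas13d and 0.43% in EPN24, a ratio of 0.864. Per ERCC count, which follows the amount of RNA in a volume of medium, there were 0.198 and 0.211 member counts in EPN24-Cas13d, against 0.0088 and 0.0074 in EPN24, a ratio of 25.3.

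The counts were spread over the members in different ways. Counts above 0 were seen for 184 and 187 members in the EPN24-Cas13d libraries, against 241 and 234 in the shallower EPN24 libraries. The 5 most abundant members of a library held 37.5% ± 0.976 of member counts in EPN24-Cas13d and 8.82% ± 0.325 in EPN24 (SD, n = 2 each). The median member had 0.616 and 0.610 counts per kb of gene length in EPN24-Cas13d, against 2.37 and 2.17 in EPN24. With the 10 most abundant the shares were 60.0% in EPN24-Cas13d and 15.2% in EPN24, so a few members carried most of the count in EPN24-Cas13d, whereas in EPN24 many members had a little each.

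Of the 247 members, 187 passed the low-count filter and were tested with edgeR's quasi-likelihood test over all 20476 genes tested. At a Benjamini-Hochberg adjusted p under 0.05, 39 members were higher in EPN24-Cas13d and 109 were lower, while 39 were not called. Among all tested genes 32.6% were called higher and 48.2% lower, against 20.9% and 58.3% of the tested members. The median log2 fold change of EPN24-Cas13d over EPN24 was -2.26 over the tested members and -0.96 over all tested genes, and it stayed at -2.26 with the 9 members at 0 counts in both EPN24-Cas13d libraries set to their bound. Among the 60 members not tested, the largest count summed over the 4 libraries was 54, and ZNF763 and ZNF878 had no count at all.

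How a member passed the filter bears on these counts. In 123 of the 187 tested members only the EPN24 libraries reached the filter's minimum, and 107 of the 109 lower members were among them. In 9 only the EPN24-Cas13d libraries reached it, of which 5 were higher. A member that passed through 1 group alone had to differ, so its call adds nothing on direction, and the counts of lower members by position, KRAB pattern and GC content below are descriptions under that limit. Of the 54 members that passed in both groups, 34 were higher (63.0%) and 2 were lower (3.70%). The median of their log2 fold changes was 1.30. Over all 9942 genes that passed in both groups, 59.0% were higher and 14.8% lower, with a median of 1.23, so the higher share of the members was near that of all genes.

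**Figure D1:**
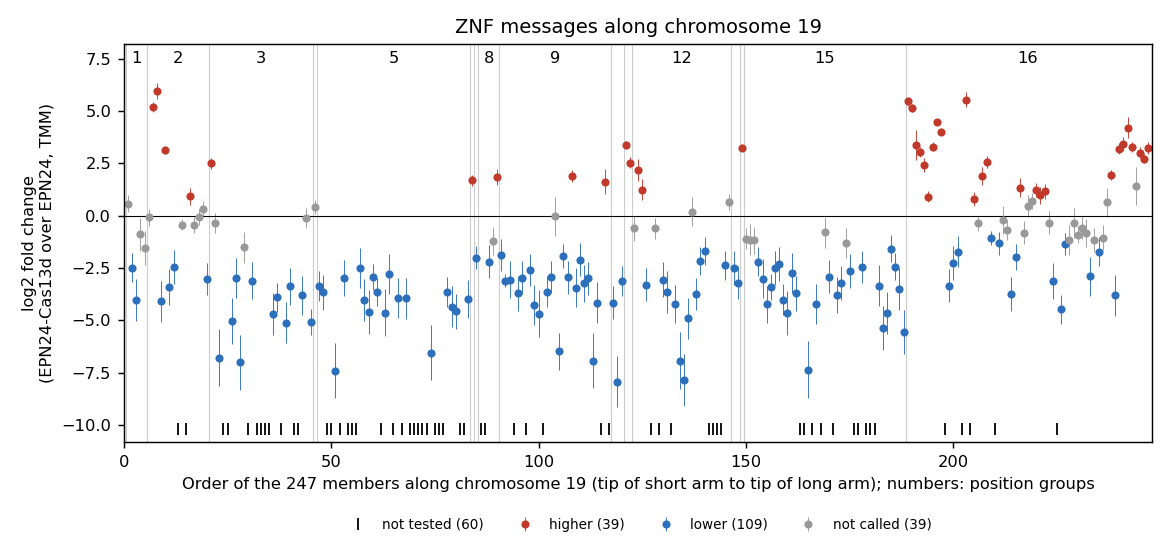
Log2 fold change of EPN24-Cas13d over EPN24 (vertical axis, TMM scaling; bars, approximate SE) for members in order along chromosome 19 (horizontal axis), with grey lines between groups of members over 1 Mb apart and ticks at the bottom for the 60 members not tested. Lower calls, 107 of 109 of them in members that passed the filter through EPN24 alone, make up most tested members of groups 3, 5, 9 and 15, and 25 of the 39 higher calls lie in group 16.

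Among the 8 largest increases, 7 were in members without a KRAB pattern, and ZNF71 was the exception. ZNF414, a short zinc finger gene on the short arm, had 68.5 and 81.0 CPM in EPN24-Cas13d, against 1.34 and 0.947 CPM in EPN24. Its EPN24 libraries held 3 and 2 counts, at or below the floor of 3 counts used here, and its log2 fold change was 5.98 (approximate SE 0.38, adjusted p = 2.95e-09, edgeR), with a counting interval of 4.79 to 7.65 around the log2 ratio of summed counts. ZNF71, a KRAB member in the group at the tip of the long arm, had 95.2 and 101.7 CPM in EPN24-Cas13d, against 3.12 and 0.947 CPM in EPN24 (log2 fold change 5.55, SE 0.34). For both genes the EPN24 libraries lay within a few counts of 0, and the EPN24-Cas13d libraries agreed closely with each other. Both passed the filter through EPN24-Cas13d alone, so their calls and p-values add nothing on direction.

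Several higher members were well covered in both EPN24-Cas13d libraries. ZNF628 had 256 and 277 CPM in EPN24-Cas13d, against 4.46 and 7.58 CPM in EPN24 (log2 fold change 5.47, SE 0.22). ZNF579 had 286 CPM in each EPN24-Cas13d library, against 8.03 and 8.05 CPM in EPN24 (5.15, SE 0.19). These 2 genes are neighbours near the start of the last group, and their libraries did not overlap between groups. ZNF358 on the short arm had 280.3 and 302 CPM in EPN24-Cas13d, against 4.46 and 11.4 CPM in EPN24 (5.21, SE 0.24). ZNF787 had 450.5 and 501 CPM in EPN24-Cas13d, against 18.7 and 24.1 CPM in EPN24 (4.47, SE 0.16), counts of 1874 and 1990 against 42 and 51. ZNF444, whose protein binds the promoter of an endothelial scavenger receptor gene, had 291 and 299.5 CPM in EPN24-Cas13d, against 19.6 and 17.0 CPM in EPN24 (4.0, SE 0.17). The adjusted p of these 5 genes lay between 8.81e-12 and 7.75e-11 (edgeR). ZNF837 had 58.2 and 61.2 CPM in EPN24-Cas13d, against 6.24 and 0 CPM in EPN24. Its log2 fold change of 4.20 thus rests on 1 EPN24 library. Without EPN24 replicate 1 it was 10.64, a fitted value against a library at 0 that depends on the prior count. ZNF837 also passed the filter through EPN24-Cas13d alone, so its call adds nothing on direction.

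Per kb of gene length, the 6 most abundant members were ZNF358, ZNF787, ZNF581, ZNF579, ZNF628 and ZNF574, at a mean over the 4 libraries between 23.9 and 71.8 CPM per kb, and all were called higher. ZNF581 had 139 and 156 CPM in EPN24-Cas13d, against 18.3 and 11.4 CPM in EPN24 (log2 fold change 3.31). It shares exons with ZNF580, which had 32.9 and 41.8 CPM in EPN24-Cas13d, against 17.0 and 22.7 CPM in EPN24 (0.91), and both have fractional counts, so the split between this pair is uncertain. ZNF574 had 209 and 199 CPM in EPN24-Cas13d, against 23.6 and 15.6 CPM in EPN24 (3.37).

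Some higher members with a known role were added after their values were seen. ZNF473, whose protein takes part in the processing of histone messages, had 262 and 215 CPM in EPN24-Cas13d, against 24.5 and 25.6 CPM in EPN24 (log2 fold change 3.25). ZNF274, a KRAB protein that binds the 3′ ends of other zinc finger genes and recruits the methyltransferase SETDB1, had 70.7 and 85.6 CPM in EPN24-Cas13d, against 17.8 and 22.7 CPM in EPN24 (1.95). ZNF536, a negative regulator of neuron differentiation, had 45 and 43.8 CPM in EPN24-Cas13d, against 15.2 and 12.3 CPM in EPN24 (1.69). In each of these genes the EPN24-Cas13d libraries lay above both EPN24 libraries.

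**Figure D2:**
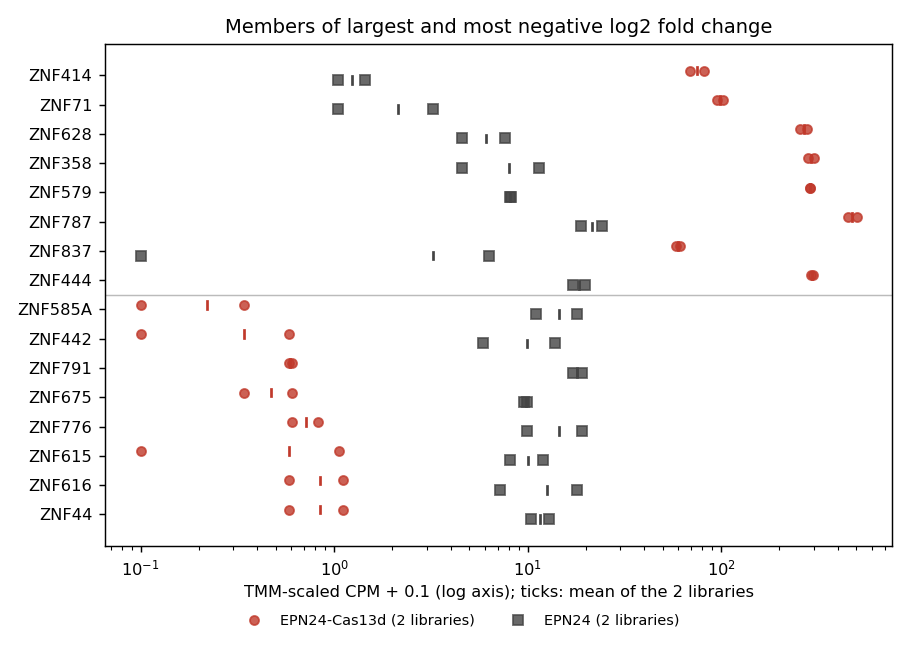
Level of the 8 members of largest and the 8 of most negative log2 fold change in each library (horizontal axis, TMM-scaled CPM plus 0.1, log scale; red circles, EPN24-Cas13d; grey squares, EPN24; ticks, group means). The upper 8 reach 58.2 to 501 CPM in EPN24-Cas13d, while the lower 8 stay at or under 1.01 CPM in EPN24-Cas13d and between 5.80 and 18.9 CPM in EPN24.

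The 8 members of most negative fold change were all sparse. They passed the low-count filter through EPN24 alone, so their calls and p-values add nothing on direction. ZNF585A, a KRAB gene with 21 fingers, had 0.24 and 0 CPM in EPN24-Cas13d, against 17.8 and 10.9 CPM in EPN24, which are counts of 1 and 0 against 39.5 and 23. Its log2 fold change was -6.47 (SE 0.89, adjusted p = 1.66e-05, edgeR), and with so few counts the interval of the log2 ratio ran from -12.20 to -4.35. ZNF791 had 0.481 and 0.503 CPM in EPN24-Cas13d, against 17.0 and 18.9 CPM in EPN24 (-5.08, SE 0.62). Both EPN24-Cas13d libraries held 2 counts of it. ZNF442, ZNF675, ZNF776, ZNF615, ZNF616 and ZNF44 completed the 8, with log2 fold changes between -5.10 and -3.89. Without EPN24-Cas13d replicate 1, which leaves a library at 0, the fitted values were -7.73 for ZNF442 and -7.76 for ZNF615 and depend on the prior count. None of these 6 had more than 4 counts in an EPN24-Cas13d library, and their EPN24 libraries held 13 to 40.5 counts. ZNF675 encodes a protein that inhibits TRAF6 signalling. Its counts were 1 and 2 in EPN24-Cas13d, against 22 and 20 in EPN24.

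Of lower members with a known role, 4 are given here, chosen after their values were seen. ZNF91, which represses SVA elements, had 2 and 0 counts in EPN24-Cas13d, against 15 and 10 in EPN24 (log2 fold change -4.34). ZNF93, which represses LINE-1 elements, had 0 counts in both EPN24-Cas13d libraries, against 14 and 15 in EPN24, and was at least 9.04-fold lower in CPM when each EPN24-Cas13d library was set to the floor of 3 counts. ZNF224, a KRAB repressor of the aldolase A gene, had 0 counts in EPN24-Cas13d, against 21 and 19 in EPN24, at least 12.4-fold lower on the same floor. ZNF146, which consists of fingers without a KRAB box, was the best covered of the lower members described here, with 26 and 18 counts in EPN24-Cas13d, against 104 and 99 in EPN24 (5.39 ± 1.22 CPM in EPN24-Cas13d and 46.6 ± 0.34 CPM in EPN24, SD, n = 2 each; log2 fold change -3.10). Its groups did not overlap, and it passed the filter in both groups. ZNF91, ZNF93 and ZNF224 passed through EPN24 alone, so their calls add nothing on direction.

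Olfactory receptor genes, which are silent outside a few tissues, served as a reference density of genes not expected in these cells. Over 370 of them the density was 0.175 and 0.14 counts per kb in EPN24-Cas13d, against 1.83 and 1.42 counts per kb in EPN24. In the EPN24 libraries 100 of the 109 lower members, and 21 of the 39 higher members, lay within 3 times that density. The exceptions among the lower members were ZNF791, ZNF14, ZNF724, ZNF146, ZNF114, ZNF614, ZNF616, ZNF304 and ZNF776. Of the 109 lower members, 36 had at most 3 counts in the EPN24-Cas13d libraries together. After subtracting each library's olfactory density times gene length from every gene, 98 members were tested, of which 31 were higher and 27 lower (33.9% and 36.8% among all genes tested that way). The median over members was then 0.086, against -0.12 over all genes, and 81 of the 109 lower members were no longer tested.

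**Figure D3:**
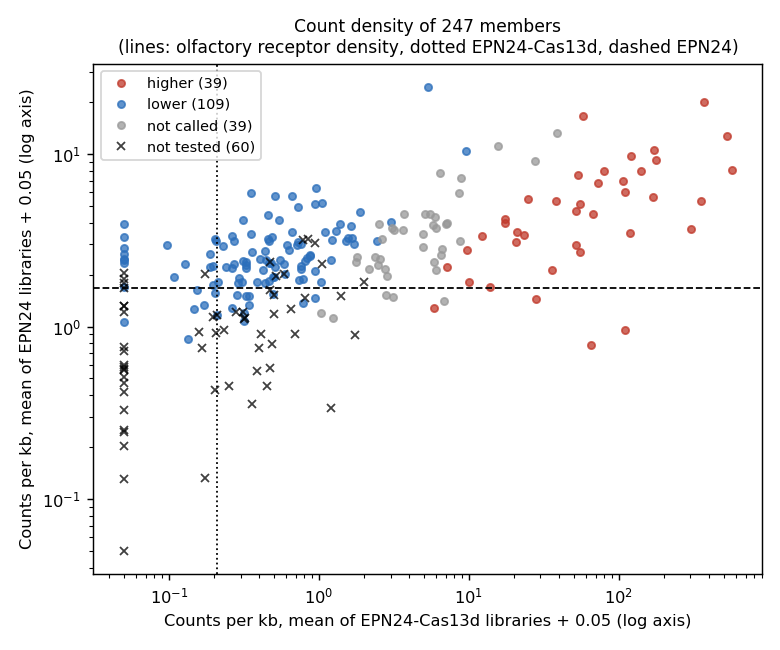
Counts per kb of gene length plus 0.05 for each of the 247 members, as the mean of the 2 EPN24-Cas13d libraries (horizontal axis) and of the 2 EPN24 libraries (vertical axis), both on log scales and not scaled for depth. Lower members crowd around the dashed line of the olfactory receptor density in EPN24, while higher members reach far to the right of the dotted line of that density in EPN24-Cas13d.

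The sign of many fold changes depended on the library scaling: 80 of the 187 tested members (42.8%) and 34.4% of all tested genes were negative with TMM and positive with ERCC totals. With ERCC totals in place of TMM, the median over all tested genes moved by 3.34 on the log2 scale, to 2.38, and that over the members to 1.05. Then 80 members were higher and 4 lower (58.4% and 2.33% of all genes), and the 4 were ZNF585A, with 1 count in EPN24-Cas13d, and ZNF93, ZNF780B and ZNF224, with none. All 39 higher members were higher with both scalings. Of all 20476 tested genes, 0 were positive with TMM and negative with ERCC totals, so this was close to fixed in advance. Of the 109 lower members, 4 were lower, 4 were higher and 101 were not called with ERCC totals. Per ERCC count, the summed counts of these 109 members were 0.0048 and 0.0050 in EPN24-Cas13d, against 0.0043 and 0.0037 in EPN24, a ratio of 1.22. These 109 were chosen by the calls themselves, so the ratio is a description. In the authors' deposited table, 72 of the 241 members with an adjusted p were higher (30.6% of all genes there) and 0 were lower (0.201%). The median of its log2 fold changes over members was 0.74. Of 71 members called both there and with ERCC totals, 69 had log2 fold changes within 0.1 of each other. That table is therefore no separate support for the result with ERCC totals.

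Relative to all genes, members lay 1.30 below the median with TMM and 1.34 below it with ERCC totals on the log2 scale. A change of library scaling moves all genes by a similar amount, so these 2 differences had to be close. Among genes that passed the filter in both groups, the median was 1.30 over members and 1.23 over all genes. The order of members below all genes was not kept under every setting. The member median was 0.54 above that of all genes among those with at least 100 counts over the 4 libraries. There 54 members were tested, of which 24 were higher and 14 lower (38.1% and 37.7% of all genes). Most of these 14 were not lower in the main fit, since 106 of its 109 lower members were not tested there. TMM factors were recomputed over the genes kept at 100 counts, so calls there are on another scale than the main ones. The member median was also 0.20 above that of all genes with the olfactory density subtracted, and 0.35 above with no filter. Members stayed below all genes under other settings. The difference was -1.29 with counts halved, between -1.24 and -1.01 without each library, and -0.40 with the GC trend removed. What sets the order was not tested.

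Levels and calls differed along the chromosome. Split where neighbouring starts lie over 1 Mb apart, they formed 16 groups, 9 of them with at least 5 members. Group 5, the 37 members between 19.67 and 24.13 Mb next to the centromere on the short arm, had 18 tested members and all 18 were called lower, from ZNF101 to ZNF254 (median log2 fold change -3.93), but 0 of them passed the filter in both groups, so the direction of these calls was fixed by the filter. Its density was 0.215 and 0.209 counts per kb in EPN24-Cas13d, against 1.52 and 1.54 in EPN24. These densities are 1.34 times the olfactory density in EPN24-Cas13d and 0.94 times it in EPN24, so in both groups the cluster lay close to the density of silent genes. Its most abundant member, ZNF431, had 6 and 4 counts in EPN24-Cas13d, against 18 and 50 in EPN24 (log2 fold change -3.64).

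Group 16, the 59 members from 55.48 Mb to the tip of the long arm at 58.48 Mb, differed from it. Of 54 tested members 25 were higher, 13 lower and 16 not called, and their log2 fold changes had a median of 0.67. Among its 29 members that passed the filter in both groups, 22 were higher and 1 was lower. Its density was 34.6 and 34.8 counts per kb in EPN24-Cas13d, against 3.53 and 3.47 in EPN24, which is 220.1 times the olfactory density in EPN24-Cas13d and 2.15 times it in EPN24. The group held 62.7% and 64.6% of member counts in EPN24-Cas13d, against 29.03% and 30.3% in EPN24. It opens with 9 consecutive higher members between 55.48 and 56.16 Mb, which are ZNF628, ZNF579, ZNF524, ZNF865, ZNF784, ZNF580, ZNF581, ZNF787 and ZNF444. Among them ZNF524, a telomere-binding protein gene, rests on 29.5 and 51 counts in EPN24-Cas13d, against 2 and 2 in EPN24. It passed the filter through EPN24-Cas13d alone, so its call adds nothing on direction.

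Per ERCC count the other groups of at least 5 members lay between these. In group 15 (51.57 to 53.58 Mb), in which all 39 members carry the KRAB pattern, 24 of 29 tested members were lower and 0 higher, and 0 passed the filter in both groups. Its density was 4.17 times the olfactory density in EPN24-Cas13d and 1.25 times it in EPN24. ZNF175, its most abundant member, had 3.37 and 8.05 CPM in EPN24-Cas13d, against 9.81 and 14.7 CPM in EPN24, and was not called (log2 fold change -1.10, adjusted p = 0.0582, edgeR). It was called lower without EPN24-Cas13d replicate 2 (-1.78) and without EPN24 replicate 1 (-1.50). In group 9 (36.18 to 37.82 Mb) 19 of 22 were lower and 2 higher, and in group 3 (11.48 to 12.64 Mb) 11 of 15 were lower and 1 higher. The most abundant member of each of these clusters was among the higher ones. ZNF875 in group 9 had 44.2 and 39.3 CPM in EPN24-Cas13d, against 12.5 and 9.94 CPM in EPN24 (1.89). ZNF653 in group 3 had 58.7 and 56.4 CPM in EPN24-Cas13d, against 8.03 and 12.3 CPM in EPN24 (2.50).

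Group 12 (43.53 to 45.08 Mb) had 11 of 17 tested members lower and 2 higher. Its most abundant member, ZNF296, had 14.7 and 16.6 CPM in EPN24-Cas13d, against 11.6 and 8.05 CPM in EPN24 (log2 fold change 0.66, not called). In group 2 (7.07 to 9.79 Mb) 4 of 13 were higher and 4 lower, and this group includes ZNF358 and ZNF414. Groups 1 and 8 had 5 members each. Their most abundant members were ZNF554, with 12.7 and 11.3 CPM in EPN24-Cas13d, against 7.14 and 8.99 CPM in EPN24 (0.58, not called), and ZNF792, with 25 and 19.6 CPM in EPN24-Cas13d, against 5.80 and 6.63 CPM in EPN24 (1.84). Summed counts per ERCC count, EPN24-Cas13d over EPN24, had a ratio of 0.763 in group 5 and 1.77 in group 15, of 45.8 in group 2 and 54.6 in group 16, and of 0.527 for the olfactory receptors.

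The members were next compared by the KRAB box. A pattern for it was found in the translated coding transcripts of 201 members, and proteins without a match may still carry one. Of the 150 tested members with the pattern, 16 were higher and 102 lower (median log2 fold change -2.92). Of the 37 without it, 23 were higher and 7 lower, with a median of 2.20. Among members that passed the filter in both groups, 15 of 29 with the pattern were higher and 1 lower (median 0.81), and 19 of 25 without it were higher and 1 lower (median 2.54). The difference between these classes was not tested. Members with the pattern made up 0.101% and 0.101% of gene counts in EPN24-Cas13d, against 0.16% and 0.146% in EPN24, while those without it made up 0.247% and 0.255% in EPN24-Cas13d, against 0.0545% and 0.0485% in EPN24. Counts per ERCC count differed by a ratio of 9.70 with the pattern and 71.7 without it. The 7 lower members without the pattern were ZNF714, ZNF675, ZNF507, ZNF146, ZNF180, ZNF541 and ZNF471. Among the higher members with it, ZNF317 was the most abundant in CPM, with 209.6 and 219 CPM in EPN24-Cas13d, against 27.6 and 20.8 CPM in EPN24 (3.14), and it was named after its values were seen.

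The KRAB pattern went together with base composition. The median GC content of the longest transcript was 41.8% for tested and untested members with the pattern and 57.1% for those without it. By call, it was 57.8% for the higher, 40.7% for the lower and 45.1% for the members not called, and 40.5% for the 60 not tested. The higher members had a median of 9 fingers, the lower ones 13.

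Fold change was compared with GC content in the same way. Of 45 tested members at or under 40% GC, 44 were lower and 0 higher, and of 75 between 40% and 45%, 53 were lower and 4 higher. Between 45% and 50%, 10 of 34 were lower and 7 higher, and between 50% and 55%, 1 of 9 was lower and 7 higher. Above 55%, 21 of 24 were higher and only ZNF541 was lower. Of members at or under 40%, 0 passed the filter in both groups. Of those that did, 4 of 15 between 40% and 45% were higher, 7 of 14 between 45% and 50%, 5 of 5 between 50% and 55%, and 18 of 20 above 55%. Across the 187 tested members Pearson's r between GC content and log2 fold change was 0.76 and Spearman's rho was 0.73, a description over genes measured in the same 4 libraries. It was 0.65 over the 150 members with the KRAB pattern, 0.77 over the 37 without it, 0.67 over the 133 outside group 16, 0.69 over the 54 that passed the filter in both groups, and 0.64 over the 98 tested with the olfactory density subtracted. For the number of fingers r was -0.35, and for the GC content of the third codon positions within fingers it was 0.76 (186 members).

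**Figure D4:**
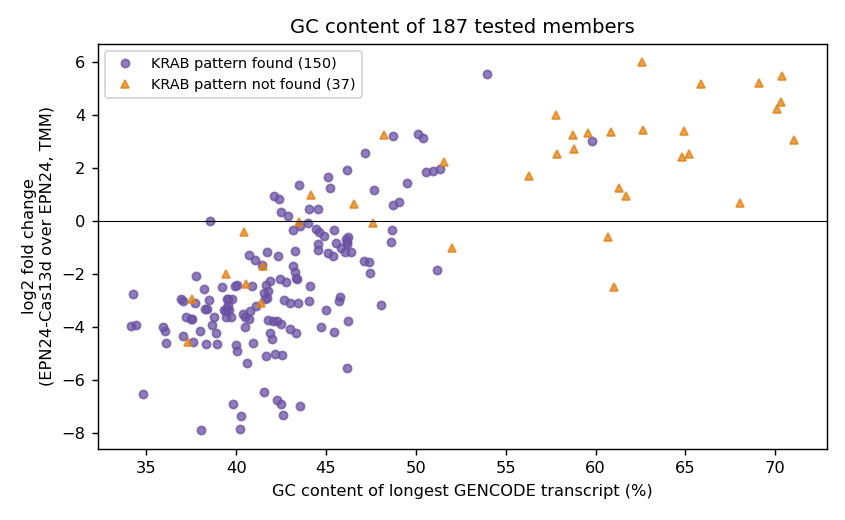
GC content of the longest transcript (horizontal axis, %) and log2 fold change of EPN24-Cas13d over EPN24 (vertical axis, TMM) of the 187 tested members, with circles for the 150 that carry the KRAB pattern and triangles for the 37 in which it was not found. The points climb from left to right (Pearson's r = 0.76), and all but ZNF541 of the lower members lie under 55% GC.

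Calls went with GC content in the same direction over all protein-coding genes, members included, and were not split there by filter passage. Of 2164 tested protein-coding genes at or under 40% GC, 1831 were lower and 51 higher, and of 4992 above 55%, 3007 were higher and 1109 lower. Among ZNF genes of other chromosomes above 55% GC, 47 of 54 were higher and 2 lower. With the GC trend of each library removed, 47 members were higher and 31 lower (36.6% and 31.4% of all genes), the median over members was -0.45 against -0.05 over all genes, and 34 of the 39 higher and 29 of the 109 lower members kept their call.

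Members were then set beside other genes. Of 222 tested ZNF genes on other chromosomes, 90 were higher and 94 lower (median log2 fold change -0.20). Of 980 other tested protein-coding genes of chromosome 19, 565 were higher and 271 lower (median 1.39). Of those that passed the filter in both groups, 89 of 132 ZNF genes on other chromosomes were higher and 17 lower (67.4% and 12.9%), and 529 of 646 other genes of chromosome 19 were higher and 35 lower (81.9% and 5.42%), beside 63.0% and 3.70% of the 54 members. These counts share the libraries and the GC gradient, and the differences between the gene groups were not tested. ZNF genes of other chromosomes made up 1.98% and 1.96% of gene counts in EPN24-Cas13d, against 0.446% and 0.43% in EPN24.

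The messages of the machinery that KRAB boxes recruit were called in both directions with TMM. Of 22 listed genes, all tested, 12 were higher and 10 lower (median log2 fold change 1.53). These are 54.5% and 45.5%, beside 32.6% and 48.2% of all tested genes, so the lower share was near that of all genes. With ERCC totals 16 were higher and 0 lower, beside 58.4% and 2.33% of all tested genes. TRIM28, the scaffold that binds the KRAB box and is encoded just beyond the last ZNF group, had 2155 and 2216 CPM in EPN24-Cas13d, against 87.4 and 62.5 CPM in EPN24 (4.86, SE 0.14, adjusted p = 1.93e-12, edgeR). UHRF1, which guides maintenance of DNA methylation, had 735 and 731 CPM in EPN24-Cas13d, against 58.9 and 53.5 CPM in EPN24 (3.70). DNMT1, the maintenance methyltransferase, had 1117 and 1013 CPM in EPN24-Cas13d, against 122 and 158 CPM in EPN24 (2.93). In all 3 the EPN24-Cas13d libraries lay far above the EPN24 libraries. SMARCAD1 (-4.09), ATRX (-3.52), SUMO2 (-2.97) and CBX3 (-2.86), named after their values were seen, were lower on the TMM scale.

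**Figure D5:**
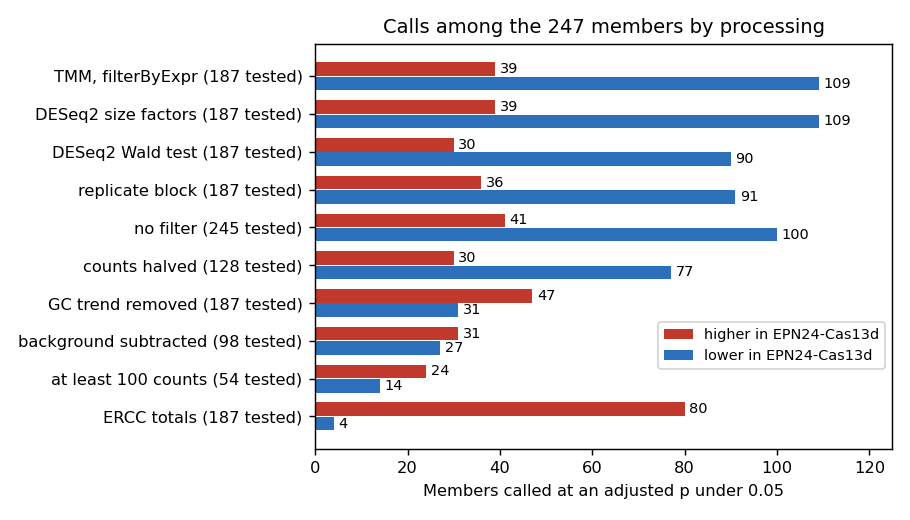
Number of members called higher (red) and lower (blue) in EPN24-Cas13d at an adjusted p under 0.05 (horizontal axis) under each way of processing (vertical axis, with the number of members tested). Higher calls range between 24 and 80, and lower calls between 109 and 4, the 4 being those with ERCC totals.

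With the other settings shown, the shares among all genes were 32.5% higher and 48.5% lower with DESeq2 size factors (39 and 109 members), 28.6% and 39.5% with the DESeq2 Wald test (30 and 90), 32.0% and 41.5% with the replicate block (36 and 91), 14.9% and 22.5% with no filter (41 and 100), and 38.3% and 45.6% with counts halved (30 and 77). Of the 39 higher members, 21 were called higher under all 13 alternatives tried, among them ZNF358, ZNF414, ZNF317, ZNF574, ZNF473, ZNF628, ZNF579, ZNF787, ZNF444, ZNF71 and ZNF274. ZNF414 and ZNF71 among these had passed the main filter through EPN24-Cas13d alone. None of the 109 lower members was called lower under all 13. With the filter at 100 counts 106 of them were not tested, and 4 of the 109 were lower under every alternative in which they were tested. Exons of 145 of the 247 members overlap another gene, and 75 have a fractional count in at least 1 library, so counts of such genes may hold reads of a neighbour. Of the genes given with values, this holds for ZNF71, ZNF358, ZNF837, ZNF585A, ZNF776, ZNF616, ZNF44, ZNF581, ZNF580, ZNF653, ZNF431, ZNF175, ZNF473, ZNF536, ZNF524, ZNF93, ZNF224, ZNF780B and ZNF146.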

How the data were processed

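Per the labels' protocols, total RNA was extracted from 200 µl of cleared, filtered supernatant after ERCC RNA was added, and libraries were amplified over 17 PCR cycles and read as 150-nt pairs. Tools in the submitters' processing notes are STAR 2.7.10a, DESeq2 1.36.0, Trim Galore 0.6.7, FastQC 0.11.9 and, from Subread, featureCounts 2.0.1. The builds named there are GRCh38 and hg38. The sources used here give no annotation release, strand setting or multi-mapping option. The authors deposited expected counts (read counts with fractions, not normalized) and gene lengths in bp (other unit). The authors' deposited DESeq2 table holds mean normalized counts (signal), log2 fold changes, Wald statistics (score) and p-values. Of 61640 count rows, 5 pieces of a broken row were left out, and 61543 genes and 92 ERCC transcripts were used.

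Counts were rounded, filtered with filterByExpr (20476 genes), TMM-scaled without ERCC rows and tested with edgeR 4.0.16 in R 4.3.3 (robust quasi-likelihood test, Benjamini-Hochberg adjustment over all tested genes, threshold 0.05). CPM values were computed with the TMM scaling. Approximate SEs were taken as the size of a log2 fold change over the root of its F statistic. On simulated counts with 200 changed genes among 20476, 37.8% of genes changed 2-fold and 77.9% of those changed 4-fold were recovered, and 4 unchanged genes were called. The simulation had a fixed dispersion, as many increases as decreases and otherwise the same composition in both groups. In the data most tested genes were called and many signs depended on the scaling. The simulated figures therefore give no error rate for the calls here. Floors are 3 counts, which equal 0.721 and 0.755 CPM in EPN24-Cas13d and 1.34 and 1.42 CPM in EPN24. Counting intervals are exact at 95% for independent counts, and too narrow if the reads of a pair were counted separately.

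Named members were, by rule, the 8 largest and 8 most negative called log2 fold changes (mean of at least 5 CPM, libraries not overlapping between groups), the 6 most abundant per kb, and the most abundant of each position group of at least 5 members; others are marked in the text. The members, lists and rules were chosen with earlier results of these data known. GC content, finger number (Cys, 2 to 4 residues, Cys, 12 residues, His, 3 to 5 residues, His) and the KRAB pattern came from GENCODE release 29 transcripts (GRCh38) translated here, in place of RefSeq proteins as first planned; all 247 members matched. Alternatives were DESeq2 1.42.0 size factors and Wald test, ERCC totals, no filter, at least 100 counts, counts halved, the replicate block, leaving out each library, subtraction of the olfactory receptor density, and an offset that removes each library's GC trend. Same-numbered libraries did not deviate together (r = -0.004 over 20476 genes), so numbers were not used as pairs.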

Additional observations from a re-analysis of the deposited data

How the results depend on the processing

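The counts of higher and lower members under ERCC totals, the filter at 100 counts, the subtracted olfactory density and the removed GC trend differ from the main ones, and the cause was not tested beyond what each alternative does. ERCC totals gave 80 higher and 4 lower members and a median of 1.05, of opposite sign. The filter at 100 counts gave 24 and 14 and a median of 0.56, of opposite sign, among 54 members. Most of those 14 were not among the 109 lower members of the main fit. Subtracting the olfactory density gave 27 lower and a median of 0.086, of opposite sign. Removing the GC trend gave 31 lower and a median of -0.45. The median was -2.20 with no filter and -1.63 with counts halved. Leaving out each library in turn gave 35 to 37 higher and 70 to 88 lower members and medians between -2.25 and -1.50. The fewest lower calls were without EPN24 replicate 1 (70, median -1.50) and without EPN24 replicate 2 (72). With 1 library left in a group, that library is assumed to vary like the others. The share ratio was 1.65 to 1.81 without each library, and 0.864, of opposite direction, without the RN7SL family and the 10 genes of highest mean share.

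Of named members, ZNF175 turned to 2.28 with ERCC totals and 0.26 with the GC trend removed. ZNF554 turned to -0.72 with the filter at 100 counts. ZNF296 turned to -0.64 with that filter, -0.12 with the olfactory density subtracted and -1.50 with the GC trend removed. All 15 members named by rule and tested with the filter at 100 counts had lower log2 fold changes than in the main fit. ZNF414 went from 5.98 to 4.69, ZNF787 from 4.47 to 3.17, ZNF554 from 0.58 and ZNF296 from 0.66. The 2 sign turns with this filter were thus part of a shared shift. TMM factors were recomputed over the genes this filter kept, so its fold changes are on another scale than the main ones. The 8 largest increases ranged over 7.36 to 9.28 with ERCC totals and 1.82 to 5.36 with the GC trend removed. With the DESeq2 Wald test ZNF837 was no longer called. The replicate block gave 36 higher and 91 lower members and a median of -2.26, and since the numbers pair nothing, it is no sign of a weaker effect. DESeq2 size factors gave 39 and 109, and the Wald test 30 and 90. With counts halved 128 members were tested, of which 30 were called higher and 77 lower (23.4% and 60.2%). In the main fit 187 were tested, with 20.9% higher and 58.3% lower. Of the 109 lower members, 106 had under 100 counts over the 4 libraries.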
